A study of Caenorhabditis elegans with 10 samples.

Results

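The RNA of PVD and OLL neurons of *mec-3(e1338)* larvae was set against the RNA of whole *mec-3(e1338)* larvae. The arrays were chosen by their titles: 3 arrays of *mec-3* PVD/OLL and 2 arrays of *mec-3* whole animals, 5 of the 10 arrays in the series. All larvae were at the L2/L3 stages and grown at 25 °C. The other 5 arrays hold the same 2 kinds of sample from the wild type N2, 3 of PVD/OLL and 2 of whole animals, and enter here only through the estimate of each gene's spread and where values are set side by side. Each array gave 1 log2 value for each of 18451 gene identifiers, and all 18451 were tested.

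PVD is a sensory neuron of the body wall whose dendrite forms an elaborate branched arbor under the skin and which responds to harsh touch and to cold. OLL neurons are sensory cells at the lips. The product of *mec-3*, a transcription factor of the LIM homeodomain class, is known in this animal to act in the touch receptor neurons, where it turns on their mechanosensory genes, and in PVD, where the dendrite of mutants lacks most of its side branches. In mRNA tagging an epitope-tagged poly(A) binding protein, here FLAG-tagged PAB-1, is made from a promoter active in the chosen cells, and the poly(A) messages bound to it are pulled down from a lysate of the whole animal. A message at the same share in the tagged cells and in the animal is neither enriched nor depleted, and a message of many other tissues that is rare in the tagged cells should be depleted.

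The tag was driven by a fragment of the *ser-2* promoter, so the 2 neuron types were sampled together and cannot be told apart. Whole-animal RNA was total RNA taken from the lysate with no immunoprecipitation, and it includes RNA of PVD and OLL themselves. No pull-down from animals without the tag was used here. Cell type, pull-down and RNA fraction run together in this comparison, and normalization may do so too, so their parts in a difference cannot be told apart. No gene (0) had the same value on a PVD/OLL and a whole-animal array in any of the 24 such pairs of the 10 arrays, while the 21 pairs within a sample kind shared 1 to 9 values each. Whether the 2 kinds were normalized together is not stated, and each fold here is one between values as deposited. In such bulk samples a lower value from fewer cells of a type and one from less RNA per cell cannot be told apart either. The identifiers are not paired with gene names in the files used here, so the label PVD/OLL was not checked against marker genes, the level of *mec-3* was not read, and no function is given for any gene. Genes are therefore described by level, by size of difference and by rank, and 4 of them by identifier.

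The *mec-3* arrays formed 2 tight sets. The PVD/OLL arrays correlated with each other at 0.982 to 0.984 and the whole-animal arrays at 0.974, while a PVD/OLL and a whole-animal array correlated at 0.928 to 0.940. Between 496 and 642 genes lay at least 2-fold apart between 2 PVD/OLL arrays, and 961 between the 2 whole-animal arrays. Between a PVD/OLL and a whole-animal array, 864 to 1254 genes were at least 2-fold higher in PVD/OLL and 3019 to 3181 at least 2-fold lower, over the 6 pairings of arrays. The whole-animal mean thus rests on fewer arrays, which also lay further apart.

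The comparison asks which transcripts *mec-3* PVD/OLL neurons hold at a higher or lower share than the animal does. Of all genes, 4921 (26.7%) differed between *mec-3* PVD/OLL and *mec-3* whole animals (limma, adjusted p under 0.05). In *mec-3* PVD/OLL 1400 genes (7.59% of 18451) were higher and 3521 (19.1%) were lower. Most differences were moderate: 752 of the higher genes (4.08% of all genes) and 2298 of the lower genes (12.5%) differed at least 2-fold, 56 (0.304%) and 207 (1.12%) at least 4-fold, 8 and 13 at least 8-fold, and a single gene, a higher one, at least 16-fold. The median difference, PVD/OLL minus whole animal, was 1.03 (log2) among higher and -1.14 among lower genes, and the smallest called differences were 0.55 and -0.57. The arrays of the 2 kinds were fully apart in all 1400 higher genes and in 3518 of the 3521 lower genes. Over all genes they did not overlap for 19.9% on the higher and 43.6% on the lower side, where 7.59% and 19.1% were called.

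The balance of higher and lower genes moved with the scaling of the arrays. The median difference over all 18451 genes was -0.28 (log2), and 65.3% of all differences lay below 0. With each array centred on its median, 1746 genes (9.46%) were higher and 2671 (14.5%) lower, and the median difference was -0.16. Quantile normalization gives all arrays the same distribution and so sets the median difference near 0 by construction. After it 1900 (10.3%) were higher and 1702 (9.22%) lower, and the median difference was 0.02. Higher genes were thus 28.4% of the calls as deposited, 39.5% after centring and 52.7% after quantile normalization. After quantile normalization 1359 of the 1400 higher genes and 1702 of the 3521 lower genes were called again in the same direction. Centring moves every difference by the same offset, so its overlap with these calls is largely set by construction. Among differences of at least 4-fold, 75 were higher and 154 lower after centring, and 87 and 108 after quantile normalization. Of those of at least 8-fold, quantile normalization left 10 higher and 1 lower.

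**Figure D1:**
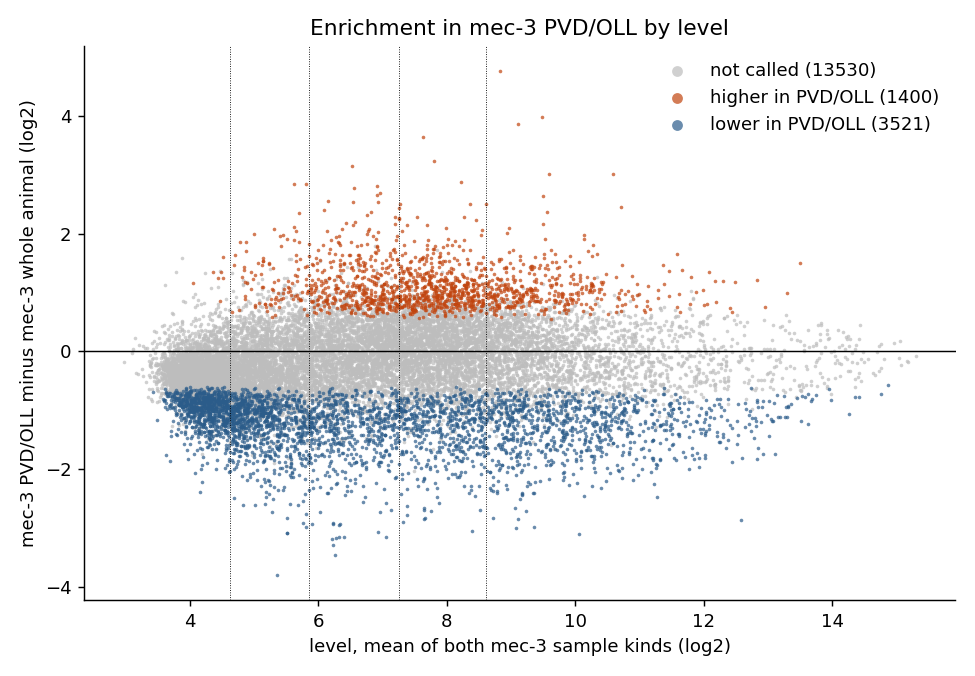
Difference between *mec-3* PVD/OLL and *mec-3* whole animals (log2, y axis) against level (mean of the 2 sample kinds, log2, x axis) for 18451 genes, 1 point per gene, coloured by call at adjusted p under 0.05; dotted lines part the 5 level bins. Higher genes are nearly absent below a level of 4.62, while lower genes occur at all levels; the largest difference, 4.76, is a rise.

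Genes were placed in 5 bins of equal size by their level, the mean of the PVD/OLL and whole-animal means, from bin 1, the dimmest, to bin 5, the brightest. Higher genes were rare at low level: 7 of the 3690 genes in bin 1 and 102 in bin 2 were higher, against 389 in bin 3, 520 in bin 4 and 382 of the 3691 in bin 5. As shares of the bin these are 0.19%, 2.76%, 10.5%, 14.1% and 10.3%. Lower genes were frequent at both ends, with 786, 832, 538, 477 and 888 genes in bins 1 to 5, or 21.3%, 22.5%, 14.6%, 12.9% and 24.1%. Bin 4, at levels of 7.25 to 8.61, was the only bin with more higher than lower genes as deposited. That balance was narrow: bin 4 held 283 higher and 302 lower genes without PVD/OLL replicate 1, 341 and 360 without replicate 2, and 280 and 282 without replicate 3. It held 198 and 222 without whole-animal replicate 1, and 198 and 174 without replicate 2.

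The median difference moved with level in the same way. It was -0.50 (log2) in bin 1, -0.44 in bin 2, -0.08 in bin 3, 0.04 in bin 4 and -0.21 in bin 5. In bin 1 the median gene measured 3.94, 3.83 and 3.88 on the PVD/OLL arrays, against 4.48 and 4.32 on the whole-animal arrays. The sets did not overlap, and the offset between the kinds was larger than the spread within either. In bin 4 it measured 7.92, 7.90 and 7.90 in PVD/OLL and 7.88 and 7.90 in whole animals, so the sets met there. In bin 5 it measured 9.63, 9.65 and 9.64 in PVD/OLL, against 9.83 and 9.90 in whole animals.

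Whole arrays differed along the same line. The value below which 5% of genes lay was 3.57 to 3.66 on the *mec-3* PVD/OLL arrays, against 4.02 and 4.15 on the *mec-3* whole-animal arrays, and the value below which 25% lay was 4.56 to 4.65, against 5.07 and 5.16. At the top, the value above which 5% lay was 10.59 to 10.64 in PVD/OLL, against 10.94 and 11.02 in whole animals. The 75% points differed little, at 8.24 to 8.25 in PVD/OLL and 8.26 and 8.30 in whole animals. The part of this difference in distribution in the calls of bins 1, 2 and 5 was not tested beyond the 2 other scalings. After centring, bins 1 to 5 held 13, 147, 480, 640 and 466 higher and 504, 671, 408, 375 and 713 lower genes, so bin 3 then also had more higher genes. After quantile normalization bin 1 held 2.85% higher and 3.33% lower genes, and bins 2 to 5 held 308, 434, 500 and 553 higher and 323, 346, 407 and 503 lower genes, so that bin 5 had more higher genes as well.

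**Figure D2:**
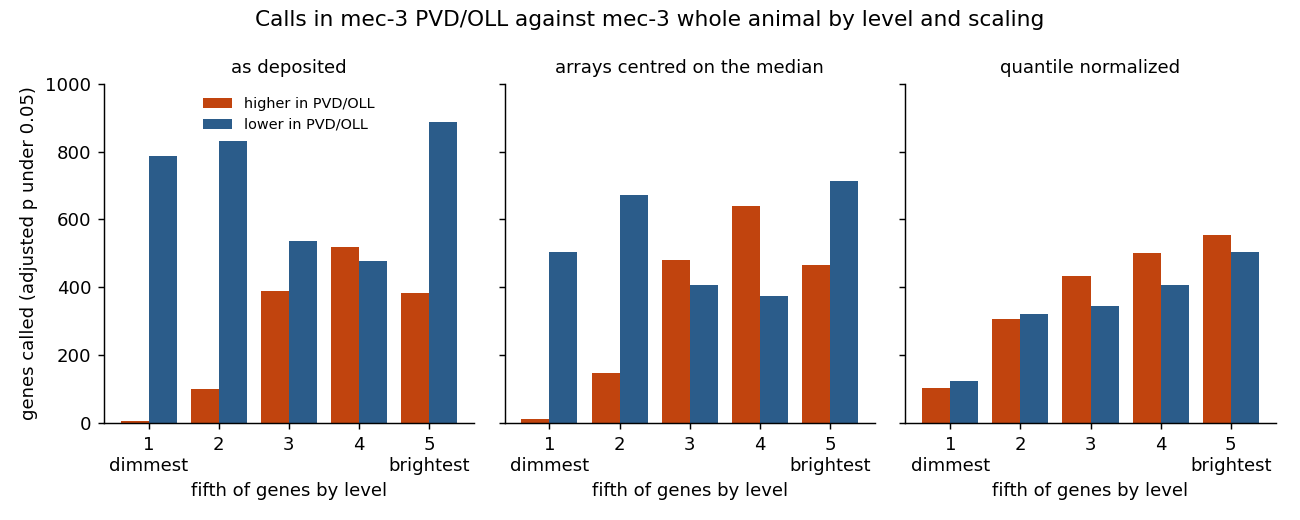
Number of genes called higher and lower in *mec-3* PVD/OLL (y axis) in 5 level bins from dimmest to brightest (x axis), for values as deposited, arrays centred on the median and quantile-normalized arrays. In bin 1 the call is 7 higher to 786 lower as deposited and 2.85% to 3.33% of the bin after quantile normalization.

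In the upper part of bin 5, lower genes outnumbered higher genes in the values as deposited. Of the brightest 5% of genes, at levels of 10.73 to 15.30, 44 were higher (4.77%) and 268 lower (29%), with a median difference of -0.37 (log2). Of all genes 7.59% were higher and 19.1% lower. Of the next 5%, at 9.70 to 10.72, 107 were higher (11.6%) and 266 lower (28.8%), with a median of -0.32. After quantile normalization the brightest 5% held 13.2% higher and 13.5% lower genes and the next 5% held 17% and 15.7%, so that excess of lower genes was not seen there. The 100 brightest genes, at a level of at least 13.58, moved less: 13 were lower and 0 higher (adjusted p under 0.05). Both shares are below those of all genes, 19.1% and 7.59%. Of the 13, 2 were at least 2-fold lower, and the median difference of the 100 genes was -0.16. Their differences ran from -1.23 to 0.48. Of the 100 brightest genes of *mec-3* PVD/OLL and the 100 brightest of *mec-3* whole animals, 76 were the same.

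The level at which a gene stood in each kind of sample tells where its difference took it. Of the 1400 higher genes, 738 lay in the top 25% of *mec-3* PVD/OLL values and 0 in the bottom 25%, whereas 332 lay in the top and 96 in the bottom 25% of whole-animal values. Of the 3521 lower genes, 1299 lay in the bottom 25% of PVD/OLL values and 714 in the bottom 25% of whole-animal values. Another 793 lower genes were still in the top 25% of PVD/OLL values, and all of these were in the top 25% in whole animals too, with a median difference of -1.17 (log2). These shares follow in part from the direction of the difference, since a higher gene gains rank in PVD/OLL.

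A minority of the called genes crossed the range. Between the bottom 50% in whole animals and the top 50% in PVD/OLL there were 354 higher genes, with a median difference of 1.15 (log2). Between the top 50% in whole animals and the bottom 50% in PVD/OLL there were 458 lower genes, with a median of -1.46. Over all genes, called or not, 768 rose from the second to the third 25% from the bottom. Another 13 rose from the bottom to the third and 18 from the second to the top. Downward, 762 fell from the third to the second, 15 from the third to the bottom and 22 from the top to the second. Over all genes the totals each way are equal by construction, since each kind is split at its own 50% point. Higher genes that moved by at least 2 steps of 25% numbered 31. Of these, 13 stood in the bottom 25% in whole animals and in the third 25% from the bottom in PVD/OLL, and 18 went to the top 25%. Lower genes that moved so far numbered 36. No gene (0) went between the bottom and the top 25% in either direction.

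The most enriched gene, WBGene00011141, measured 11.42, 11.06 and 11.16 (log2) on the 3 *mec-3* PVD/OLL arrays, against 5.59 and 7.31 on the 2 *mec-3* whole-animal arrays. It was high on every PVD/OLL array, and the whole-animal arrays lay far apart, though well below. It ranked 568 of 18451 by mean in PVD/OLL and 9792 in whole animals. Its enrichment was 27.1-fold (log2 difference 4.76, SE 0.42, limma adjusted p = 0.000639). It was 3.90 without whole-animal replicate 1 and 5.62 without replicate 2, so the fold depends on which whole-animal array is used, and the call was kept in both.

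A better measured gene stood at rank 2. It had 11.78, 11.17 and 11.48 in *mec-3* PVD/OLL, against 7.60 and 7.38 in whole animals, a 15.9-fold enrichment (3.99 on the log2 scale, SE 0.27, limma adjusted p = 0.00028), and it stayed at 3.84 to 4.14 with each *mec-3* array left out. It ranked 481 in PVD/OLL and 6706 in whole animals. At rank 3 the values were 10.63, 11.59 and 10.88 in PVD/OLL, against 7.22 and 7.13 in whole animals (log2 difference 3.86, SE 0.47, limma adjusted p = 0.00111). In both genes the whole-animal arrays were close together and the groups stood more than 3 log2 units apart.

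The 15 most enriched genes were 6.33-fold to 27.1-fold higher in *mec-3* PVD/OLL. Their PVD/OLL means ran from 7.04 to 12.09 with a median of 9.42, and their whole-animal means from 4.19 to 9.07 with a median of 5.81. All 15 lay in the upper 50% of PVD/OLL values, and 10 of them in the lower 50% of whole-animal values. These positions follow in part from choosing the genes by their difference. Brightest of the 15 was the gene of rank 7, at 12.34, 11.76 and 12.19 in PVD/OLL and 9.58 and 8.56 in whole animals. At rank 12 the values were 8.46, 8.11 and 8.39 in PVD/OLL, against 5.46 and 5.55 in whole animals, with both kinds tight. In 5 of the 15 the whole-animal arrays lay more than 1 log2 unit apart, and in 2 the PVD/OLL arrays did. The calls of 13 of the 15 were kept with each *mec-3* array left out. The gene of rank 5 lost its call without whole-animal replicate 2 (log2 difference 2.76), and that of rank 11 with any of the 5 *mec-3* arrays left out. For rank 11 the limma adjusted p was 0.0843, 0.0602 and 0.0553 without PVD/OLL replicates 1, 2 and 3. Its difference was 2.58 and 3.11 without whole-animal replicates 1 and 2. Wild-type PVD/OLL arrays, which also enter the estimate of spread, lay far apart in both genes. They measured 6.07, 7.13 and 9.10 for rank 5, and 7.10, 8.96 and 5.38 for rank 11. When wild type was dropped and every *mec-3* array kept, both genes were called (limma adjusted p = 0.00346 and 0.00367). Leaving out single arrays was not tested there.

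**Figure D3:**
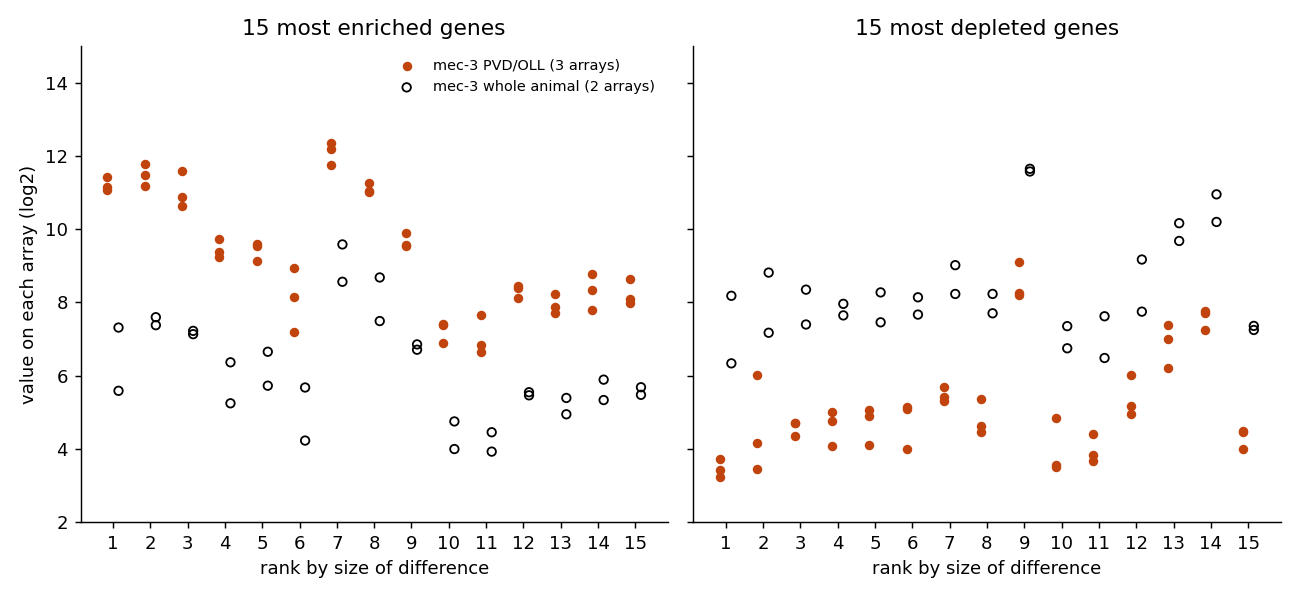
Values on each array (log2, y axis) of the 15 most enriched (left) and 15 most depleted genes (right), ranked by size of difference (x axis); filled points are the 3 *mec-3* PVD/OLL arrays and open points the 2 *mec-3* whole-animal arrays. The kinds do not overlap in any of the 30 genes, which the rule for choosing them required, and the gap within a kind reaches over 1 log2 unit in several.

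The 2 largest falls were imprecise. In the larger one the PVD/OLL mean, 3.46, was also below the value under which 5% of genes lay on these arrays (3.57 to 3.66). Its fold thus rests on very dim PVD/OLL values. WBGene00007571 measured 3.44, 3.23 and 3.72 in *mec-3* PVD/OLL, against 8.18 and 6.34 in *mec-3* whole animals. That is 13.9-fold lower in PVD/OLL (log2 difference -3.80, SE 0.78, limma adjusted p = 0.00752), and -2.87 with the call lost without whole-animal replicate 1 (limma adjusted p = 0.0767) and -4.72 without replicate 2. WBGene00138724 measured 3.44, 6.01 and 4.15 in PVD/OLL, against 8.81 and 7.17 in whole animals (log2 difference -3.46, SE 1.12, limma adjusted p = 0.0421). Its PVD/OLL arrays spread over more than 2 log2 units. Its difference was -2.64 without whole-animal replicate 1 and -4.28 without replicate 2, and the call was lost in both (limma adjusted p = 0.247 and 0.0814). The call was also lost without PVD/OLL replicate 1 or 3 (limma adjusted p = 0.116 and 0.101), after quantile normalization (0.0744) and with replicate number as a block (0.0562).

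Other falls were steadier. At depletion rank 7 a gene measured 5.68, 5.42 and 5.30 in PVD/OLL, against 9.02 and 8.23 in whole animals, 8.92-fold lower in PVD/OLL (limma adjusted p = 0.000481). At rank 15 the gene had 4.01, 4.45 and 4.48 in PVD/OLL, against 7.25 and 7.36 in whole animals, or 7.94-fold lower. The gene of rank 9 was bright on both sides, at 8.19, 9.10 and 8.26 in PVD/OLL and 11.57 and 11.65 in whole animals, and was 8.55-fold lower. The 15 most depleted genes were 7.94-fold to 13.9-fold lower, with PVD/OLL means of 3.46 to 8.51 (median 4.69) and whole-animal means of 7.05 to 11.61 (median 7.90). All 15 lay in the upper 50% of whole-animal values, and 12 of them in the lower 50% of PVD/OLL values, which again follows in part from the choice. The calls of 13 of the 15 were kept with each *mec-3* array left out.

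Genes that differed at least 4-fold extend these lists. The 56 enriched ones had *mec-3* PVD/OLL means of 6.35 to 12.09 (median 8.33) and whole-animal means of 4.19 to 9.48 (median 6.03). None of them was in bin 1, and 6, 23, 15 and 12 were in bins 2 to 5. The 207 depleted ones had PVD/OLL means of 2.96 to 11.15 (median 5.86) and whole-animal means of 5.11 to 14.01 (median 8.33), with 5, 48, 54, 41 and 59 in bins 1 to 5. Replicates lay more than 1 log2 unit apart in whole animals for 9 of the 56 and 28 of the 207, and in PVD/OLL for 6 and 46. In wild type 55 of the 56 were above 0 and 44 were called higher, against 39.1% and 9.61% of all genes. Of the 207, 205 were below 0 in wild type and 154 were called lower, against 60.9% and 18.9% of all genes.

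The sizes of the largest differences varied with level. Level is the mean of both kinds, so bin 1, at levels up to 4.62, leaves less room for a large difference. Smaller sizes there follow in part from the binning. In bin 1 the most enriched gene measured 5.30, 5.03 and 5.64 in PVD/OLL, against 3.73 and 3.69 in whole animals (log2 difference 1.61, limma adjusted p = 0.0132). The most depleted gene of that bin measured 3.31, 2.81 and 2.75 in PVD/OLL, against 5.67 and 5.02 in whole animals (log2 difference -2.39, limma adjusted p = 0.00182). Its PVD/OLL mean, 2.96, was below the value under which 5% of genes lay on these arrays (3.57 to 3.66). In bin 5 the 3 largest rises were 4.76, 3.99 and 3.86 (log2) and the 3 largest falls -3.10, -2.99 and -2.98. In bin 4 the largest rise was 3.64 and the largest fall -3.05. The call of the bin 1 rise was lost without whole-animal replicate 1 or 2 (limma adjusted p = 0.0696 and 0.0731).

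Of the called genes, 285 higher and 778 lower were also called, in the same direction, in each of the 5 fits that left out a *mec-3* array. These are 20.4% of the 1400 and 22.1% of the 3521. The whole-animal arrays decided most: 511 of the higher genes were called again without whole-animal replicate 1 and 468 without replicate 2, against 744 to 897 without a PVD/OLL array. Each of these fits had fewer arrays, and without a whole-animal array the remaining one was assumed to vary like the other groups. A rule that a gene be called in all 5 removes small differences, so larger medians among the kept genes follow in part from it. By level, 0 of the 7 higher genes of bin 1 were kept, and 17.6%, 19.5%, 20.2% and 22.5% of those of bins 2 to 5. Of the lower genes 74 of 786 were kept in bin 1 (9.41%), between 21.2% and 21.8% in bins 2 to 4, and 310 of 888 in bin 5 (34.9%). The 285 kept higher genes had a median difference of 1.496 (log2) and a median PVD/OLL level of 8.57. The 778 kept lower genes had -1.63 and 6.70, against 8.56 in whole animals.

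**Figure D4:**
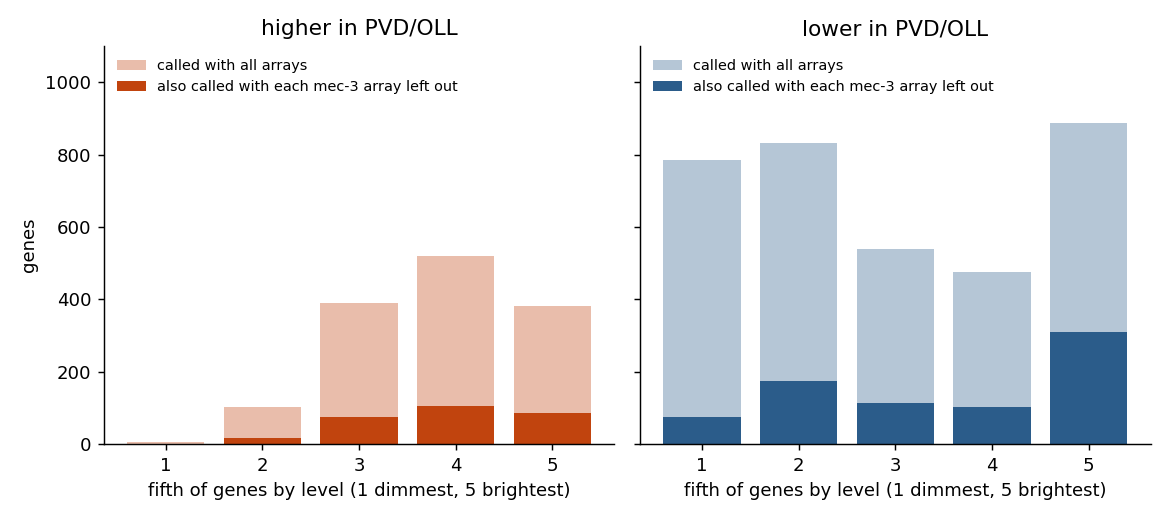
Genes called higher (left) and lower (right) in *mec-3* PVD/OLL by level bin (x axis), as counts (y axis): pale bars with all arrays, dark bars those also called with each *mec-3* array left out. The tallest dark bar is that of the brightest lower genes, 310 of 888, and bin 1 keeps 74 of 786.

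The wild-type arrays, of which none enters a *mec-3* mean, give the same comparison in another genotype. There, wild-type PVD/OLL showed 1773 higher (9.61%) and 3496 lower genes (18.9%). In the level bins formed on the *mec-3* arrays, bins 1 to 5 held 14, 117, 376, 621 and 645 genes higher in wild type. They held 888, 996, 600, 412 and 600 lower ones, so bin 5 had no excess of lower genes there. In bins formed on the wild-type arrays, bin 5 held 550 higher and 720 lower genes. A difference between the genotypes in this pattern by level was not tested. Of the 1400 genes higher in *mec-3* PVD/OLL, 1347 (96.2%) also lay above 0 in wild type, as did 39.1% of all genes, and their median there was 0.88 (log2), against 1.03 in *mec-3*. Of the 3521 lower genes, 3333 (94.7%) lay below 0 in wild type, as did 60.9% of all genes, with a median of -0.88 against -1.14 in *mec-3*. Fewer were also called in the same direction in wild type: 879 of the 1400 (62.8%) and 1987 of the 3521 (56.4%). Of the 285 higher and 778 lower genes kept with each *mec-3* array left out, 250 (87.7%) and 629 (80.8%) were called in the same direction in wild type. The genes were picked on their *mec-3* values, so the smaller wild-type medians are no measure of a difference between the genotypes. Calls of both genotypes share 1 estimate of each gene's spread.

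Of the 15 most enriched genes, 14 were also above 0 in wild type and 11 were called higher there. WBGene00011141 was 4.76 (log2) higher in *mec-3* PVD/OLL and 5.94 higher in wild-type PVD/OLL. For rank 4 the values were 3.64 in *mec-3* and 3.49 in wild type. The exception was the gene of rank 6. It had 8.16, 8.94 and 7.20 in *mec-3* PVD/OLL and 5.68 and 4.23 in *mec-3* whole animals, but 6.26, 6.37 and 6.46 in wild-type PVD/OLL and 6.70 and 6.09 in wild-type whole animals. Its difference between genotypes did not pass the test (3.18, limma adjusted p = 0.173). All 15 of the most depleted genes lay below 0 in wild type, and 11 were called lower there. Depletion rank 3 stood at -3.29 in both genotypes. Rank 5 stood at -3.17 in *mec-3* but at -0.51 in wild-type larvae, a difference that did not pass (limma adjusted p = 0.196).

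**Figure D5:**
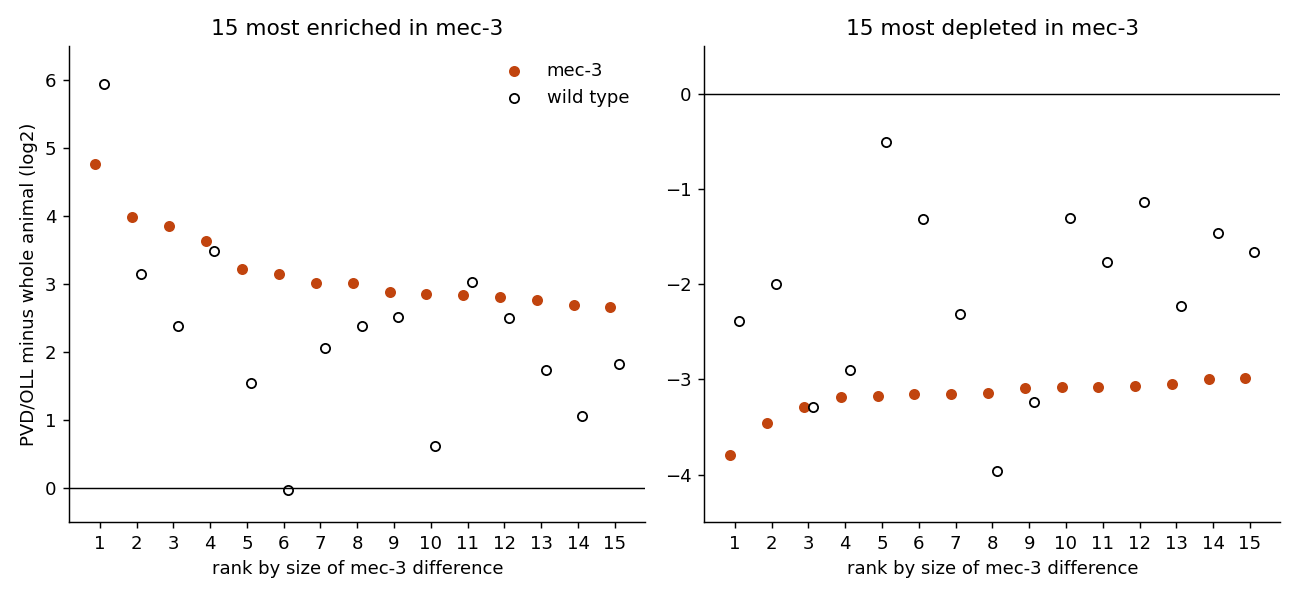
PVD/OLL minus whole animal (log2, y axis) in *mec-3* (filled) and in wild type (open) for the 15 genes most enriched (left) and most depleted (right) in *mec-3*, ranked by the *mec-3* difference (x axis). In wild type 14 of the 15 enriched genes lie above 0 and all 15 depleted genes below 0.

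The test of whether the enrichment differs between *mec-3* and wild type called a single gene (0.00542% of those tested). Before adjustment 1809 genes (9.80%) had a p under 0.05 (limma), so the single call does not show that the other genes are alike in both genotypes. The gene was WBGene00016234. It measured 11.004, 10.98 and 11.18 in *mec-3* PVD/OLL, against 9.18 and 9.51 in *mec-3* whole animals, a 3.27-fold enrichment (log2 difference 1.71, SE 0.22, limma adjusted p = 0.00137). In wild type it measured 11.48, 11.94 and 11.57 in PVD/OLL, against 13.16 and 12.99 in whole animals, a difference of -1.42. Of the 4 groups, wild-type whole animals were highest and *mec-3* whole animals lowest, with no overlap between any of them. The *mec-3* enrichment of this gene was 1.54 to 1.88 with each *mec-3* array left out, and its call was kept each time. The call of the difference between genotypes was lost with any of these arrays left out (limma adjusted p = 0.0805 to 0.170) and with replicate number as a block (0.106). Among all genes, 16 were called in opposite directions in the 2 genotypes: 6 higher in *mec-3* and lower in wild type, and 10 the other way. Apart from WBGene00016234, none of the 16 passed the test of the difference, with limma adjusted p of 0.0714 to 0.197. The 16 were found by their opposite calls, so no test of them as a set is given.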

How the data were processed

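RNA of 10 samples was measured on Affymetrix *C. elegans* tiling arrays, amplified and labelled with NuGEN kits, per the labels' protocols. The authors deposited log2 values made with RMA, per the submitters' processing notes, which give no version. The log2 scale was read from the values. The sources used here do not give the probe assignment, the genome build, any filter, or whether the arrays were normalized together. The name table (WBcel235, 46926 rows) matched 0 of 18451 identifiers, so the 56 gene lists drawn up for this comparison were not used, and no sequence is shown.

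Groups came from sample titles. The labels number biological replicates, and nothing says which cultures they came from. All 10 arrays entered 1 fit with a mean per group (lmFit and eBayes, limma 3.58.1, R 4.3.3), two-sided, with Benjamini-Hochberg adjustment over all rows. The number of arrays limits the precision. The code was tested on simulated data. Genes were taken by rank: the 15 largest called differences each way without overlap, and the 3 largest each way per level bin. At most 2 identifiers each way are printed: the largest rise, the 2 largest falls, and the gene called for the difference between genotypes, chosen after its values were seen. The members and lists were chosen with earlier results of these data known.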

Additional observations from a re-analysis of the deposited data

Results flagged for a closer look

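WBGene00016234 differed between the genotypes in the test of the difference itself. Its PVD/OLL minus whole-animal difference was 1.71 (log2) in *mec-3* and -1.42 in wild type, and the difference between them was 3.13 (SE 0.32, limma adjusted p = 0.0157; 0.00318 to 0.170 over the alternatives). The call was lost with any of the 5 *mec-3* arrays left out, where the difference stayed at 2.96 to 3.29, and with replicate number as a block (3.13, limma adjusted p = 0.106). With groups of 3 and 2 arrays, no single array was tested for standing apart from its group.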

How the results depend on the processing

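In place of 1400 higher and 3521 lower genes, leaving out an array gave 504 to 919 higher and 1415 to 2247 lower. Both counts were larger with only the 5 *mec-3* arrays (1935 and 4927), with array weights (1939 and 4872) and at an adjusted p under 0.10 (1962 and 4937). A minimum of 2-fold gave 752 and 2298, and 791 higher genes with only the 5 *mec-3* arrays (chosen after seeing the data). Lower genes fell to 1702 after quantile normalization and 1737 without the dimmest 50%, where fewer genes are tested. The median difference, -0.28 (log2), became 0.0153, above 0, after quantile normalization (set near 0 by construction), -0.16 after centring, -0.14 and -0.0477 without the dimmest 25% and 50%, -0.31 with a replicate block, and -0.29 to -0.26 with an array left out. The single gene differing between genotypes became 2 after quantile normalization, 2 with an intensity trend and robust prior, 8 without the dimmest 50%, 5 at an adjusted p under 0.10, 0 with the replicate block, and 0 to 0 with an array left out. The replicate block gave 1200 higher and 3357 lower genes. Samples of the same number did not deviate together (r = -0.0016 and 0.0092), so they were not taken as pairs. No named gene changed direction, which follows largely from the choice of called genes without overlap between the kinds. The calls of 34 of 41 were kept under every alternative run on them. With level bins formed on the wild-type arrays instead (also chosen after seeing the data), bins 1 to 5 held 9, 113, 348, 495 and 435 higher and 835, 798, 556, 498 and 834 lower genes, so bin 4 then had 3 more lower than higher genes. Detection above background was not used here, which limits what dim values show.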
